A study of Sus scrofa with 6 samples.

Results

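*DCT*, *TYRP1* and *TRPM1* are 3 genes that pigment cells use, and their levels were followed in the ear of 6 newborn pigs. They were chosen by name from the list of differentially expressed genes that the study drew up on these same piglets. That list required more than a 2-fold change between the genotypes and also an adjusted p under a limit set by the study. Each name has 1 Ensembl transcript there, so that the 3 genes are 3 of the 22204 transcripts with at least 1 read in any library. Because this list was made from the difference between genotypes, that difference is only described below for the 3 genes. The fit across all transcripts also gives p-values for them, and nothing is read from these.

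RNA from the ear tissue of 6 new born Sutai piglets was sequenced, with 1 library per piglet. Sutai is a Chinese breed that descends from Duroc and Meishan pigs. The wild-type group (*qq* in the labels) holds the piglets 6161ST, 6165ST and 6407. The CNV/CNV group (*QQ*), with 6185STQ, 6415 and 6434, is homozygous for a copy number variant on chromosome 5 that takes in the last exons of *MSRB3*, which the study links to large ears. The labels give only *QQ* and *qq*, and equating *QQ* with CNV/CNV and *qq* with wild-type is an inference from the article. The labels name no treatment, and neither the labels nor the article give litter, sex, coat colour or the exact part of the ear for each piglet, so genotype cannot be told apart from any of these that differs between the groups. *MSRB3* itself could not be matched to a transcript and is not analysed here, so the genotypes were not checked by that gene. Between 39.3 M and 44.2 M uniquely mapped reads were assigned to transcripts in each library. In 6161ST and 6165ST, genes of cartilage and of the dermis had lower summed levels than in each of the other 4 libraries, and results that rest on this pair are also given without it.

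Melanocytes are the pigment cells of skin and hair. They build melanin from tyrosine inside melanosomes, vesicles that are then passed on to the keratinocytes of the epidermis and the growing hair. Tyrosinase starts the pathway, and *DCT* and *TYRP1* encode its relatives dopachrome tautomerase and tyrosinase-related protein 1, which act in later steps towards the dark eumelanin. *TRPM1* encodes melastatin, a cation channel of melanocytes and of bipolar cells of the retina. In an extract of whole ear tissue, fewer pigment cells and less of these RNAs per pigment cell cannot be told apart.

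The level of each gene is given in RPKM, the reads of a transcript divided by its length and by the size of the library, which allows levels of different genes to be compared per length. The transcript of *DCT* (ENSSSCT00000010405) is 4412 bases long in the files and lies on chromosome 11 of Sscrofa11.1 between 63584869 and 63678314. That of *TYRP1* (ENSSSCT00000005725) is 1859 bases long and lies on chromosome 1 between 209725497 and 209745763. *TRPM1* (ENSSSCT00000005345), with 4947 bases, lies on the same chromosome between 143709846 and 143855984. Reads covered at least 99.2% of the bases of *DCT* and at least 99.7% of those of *TYRP1* in every library, whereas for *TRPM1* the covered share ran from 85.0% to 94.5%.

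*DCT* was among the well expressed transcripts of the ear. In wild-type piglets its level was 47.4 RPKM in 6161ST, 49.2 RPKM in 6165ST and 31.1 RPKM in 6407. In CNV/CNV piglets it was 13.8 RPKM in 6185STQ, 28.2 RPKM in 6415 and 20.2 RPKM in 6434. All 3 wild-type piglets lay above all 3 CNV/CNV piglets, but 6407 and 6415 were close to each other, with a ratio of 1.11. The highest library had 3.58 times the level of the lowest. The mean of the wild-type piglets was 42.6 ± 9.97 RPKM (SD, n = 3) and that of the CNV/CNV piglets 20.7 ± 7.23 RPKM (SD, n = 3), and the log2 fold change of CNV/CNV over wild-type from edgeR was -0.91 (standard error 0.27).

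*TYRP1* had the highest level of the 3 genes in every library. It reached 105 RPKM in 6161ST, 134 RPKM in 6165ST and 77.9 RPKM in 6407 among the wild-type piglets. Among the CNV/CNV piglets it had 31.0 RPKM in 6185STQ, 80.8 RPKM in 6415 and 33.8 RPKM in 6434. The groups overlapped, since 6415 lay just above 6407, and the other CNV/CNV piglets lay far below both. From the lowest to the highest library the level rose 4.33 times, the widest range of the 3 genes. The means of 106 ± 28.1 RPKM (wild-type, SD, n = 3) and 48.5 ± 28.0 RPKM (CNV/CNV, SD, n = 3) stood beside a log2 fold change of -0.99 (standard error 0.37).

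*TRPM1* was present at a far lower level. Its values were 2.82 RPKM in 6161ST, 4.21 RPKM in 6165ST and 2.32 RPKM in 6407, against 1.43 RPKM in 6185STQ, 1.82 RPKM in 6415 and 1.49 RPKM in 6434. The groups did not overlap, and the CNV/CNV piglets were close to each other while 6165ST stood above the other wild-type piglets. With means of 3.11 ± 0.977 RPKM (SD, n = 3) and 1.58 ± 0.208 RPKM (SD, n = 3), the ratio of wild-type to CNV/CNV was 1.97, and the log2 fold change was -0.85 (standard error 0.23). The same ratio was 2.06 for *DCT* and 2.18 for *TYRP1*, so that all 3 lay close to 2, while the limit of the list was applied to Cuffdiff values that were not used here.

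**Figure D1:**
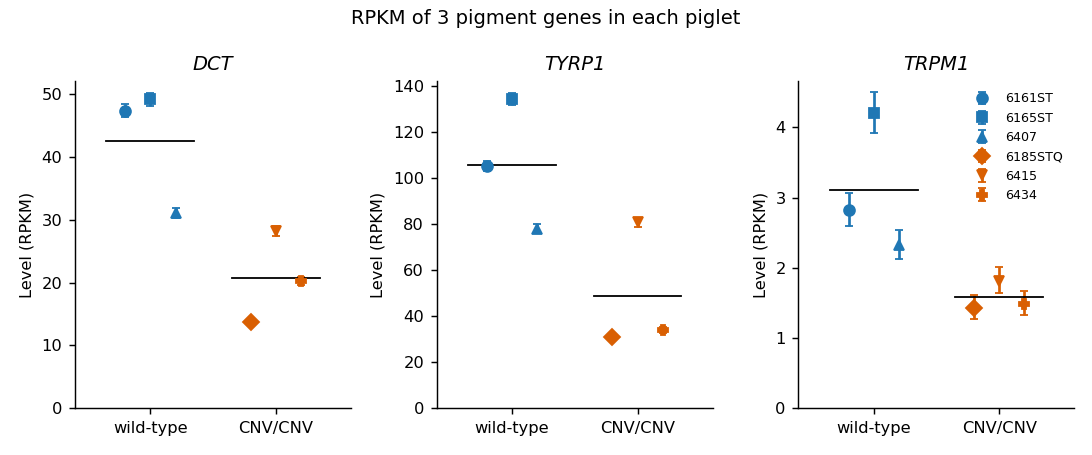
Level in RPKM (vertical axes, linear from 0) of DCT, TYRP1 and TRPM1 in each of the 3 wild-type (blue) and 3 CNV/CNV (orange) piglets, with 95% counting intervals as error bars and a black line at each group mean. For TYRP1 the CNV/CNV piglet 6415 (80.8 RPKM) lies just above the wild-type piglet 6407 (77.9 RPKM), while for DCT and TRPM1 the groups do not overlap.

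The order of the piglets was nearly shared by the 3 genes. For *DCT* and *TRPM1* it ran from 6165ST over 6161ST, 6407, 6415 and 6434 down to 6185STQ, and for *TYRP1* only 6415 and 6407 changed places. Neighbours in these orders were compared by their counting error alone, since each piglet is 1 library. With 2262 to 10083 reads per library for *TYRP1*, its ratio between 6415 and 6407 was 1.04 (exact 95% interval 1.001 to 1.07). For *DCT*, with 2384 to 8783 reads, the closest neighbours were 6165ST and 6161ST, with a ratio of 1.04 (1.01 to 1.07). *TRPM1* had from 278 to 841 reads, and its lowest piglets, 6434 and 6185STQ, could not be told apart (1.04, 0.881 to 1.23). Such intervals cover counting error only and leave out library preparation and the animal.

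The spread between piglets of a group was wider than the counting error of its libraries, least so for *TRPM1* in CNV/CNV piglets, where counting alone gave 5.051% to 5.998%. The coefficient of variation was 23.4% for *DCT*, 26.6% for *TYRP1* and 31.4% for *TRPM1* in wild-type, and 34.9%, 57.6% and 13.2% in CNV/CNV piglets. *TYRP1* was also variable next to other transcripts, as 80.3% of those tested had a smaller biological coefficient of variation in edgeR, against 59.1% for *DCT* and 51.7% for *TRPM1*.

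In the fit across all 16645 transcripts that passed the expression filter, all 3 genes among them, 0 of the 3 passed an adjusted p of 0.05 in edgeR, where 0.00601% of all transcripts did. Their estimates were below 0 in 3 of 3, as were those of 50.2% of all transcripts. At an unadjusted p under 0.05 all 3 were lower in CNV/CNV piglets, beside 2.87% of all transcripts. For 2 of the 3 the groups did not overlap in the lower direction, as was the case for 12.1% of all transcripts in RPKM and for 5.61% after TMM scaling, a correction for library composition. In the higher direction 0 of the 3 were free of overlap, beside 2.11% of all transcripts in RPKM and 4.45% after TMM scaling. As the list was built on this contrast, nothing is read from these counts. RPKM values are scaled to the library total alone. An edgeR fit scaled to the library total put the median log2 fold change of the transcripts tested at -0.13 for CNV/CNV over wild-type. A shift of this kind is contained in the RPKM means above but not in the log2 fold changes given with them.

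The size of the differences depended on single piglets, most of all for *TYRP1*. Without 6415, the log2 fold change was -1.57 for *TYRP1*, -1.19 for *DCT* and -0.96 for *TRPM1*. Leaving out 6165ST brought that of *TRPM1* to -0.59, and leaving out 6185STQ brought that of *DCT* to -0.68 and that of *TYRP1* to -0.75. Without both 6161ST and 6165ST, the log2 fold changes were -0.54 for *DCT* (standard error 0.37), -0.63 for *TYRP1* (0.52) and -0.51 for *TRPM1* (0.28), with 6407 as the only wild-type piglet, taken to vary like the CNV/CNV piglets. This left-out pair was chosen after the data were seen. Split by name, CNV/CNV minus wild-type on the scale of log2 CPM (reads relative to the TMM-scaled library size) was -1.66 for *DCT* and -1.11 for *TRPM1* between the piglets whose names hold the letters ST, and -0.32 and -0.44 between the other 3. The labels do not say what the letters stand for, and the values within each set rest on 3 libraries without replication of both genotypes.

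Markers of melanocytes and of other cell types also differed between the libraries. Every marker was matched by its name in the list of differentially expressed genes, so that markers without a difference between the genotypes could not enter, and the group differences below are a description of chosen genes. Of 13 melanocyte markers, 8 could be matched to a transcript, none of them at 0. They are *DCT*, *TYRP1* and *TRPM1* themselves with *TYR*, *MLANA*, *OCA2*, *SLC45A2* and *GPR143*, which are described below. *PMEL*, *MITF*, *SOX10*, *KIT* and *EDNRB* have no name in that list and could not be matched. The summed level of the 8 was 160 to 294 RPKM in wild-type and 88.2 to 160 RPKM in CNV/CNV piglets. This sum repeats the levels of those genes and is not a separate measure. All 8 had lower means and log2 fold changes below 0 in CNV/CNV piglets, beside 50.2% of all transcripts with a log2 fold change below 0. As each was chosen for a difference between these piglets, nothing is read from this count. The summed level of 13 hair shaft markers, led by the hair keratin genes *KRT31* and *KRT33B*, was 1376 to 5155 RPKM in wild-type piglets, highest in 6165ST, and 941 to 1479 RPKM in CNV/CNV piglets. Of these 13, 11 had lower and 2 higher means in CNV/CNV piglets. For 10 cartilage markers the sum was 11.4 RPKM in 6165ST and 77.4 RPKM in 6161ST but 706 RPKM in 6407, against 493 to 1055 RPKM in CNV/CNV piglets. Among 4 sebaceous gland markers it was 98.3, 92.0 and 32.1 RPKM in 6161ST, 6165ST and 6407, and 20.8 to 30.9 RPKM in CNV/CNV piglets. The 7 dermal fibroblast markers had 1163 and 1356 RPKM in 6161ST and 6165ST, 6212 RPKM in 6407 and 1880 to 9950 RPKM in CNV/CNV piglets. The glia marker *FABP7* had 2.85 to 6.55 RPKM in wild-type and 0.856 to 1.54 RPKM in CNV/CNV piglets, and the erythroid marker *ALAS2* had 0.175 to 0.628 and 0.549 to 1.15 RPKM. The sum of 2 immune markers was 1.33 to 2.32 RPKM in wild-type and 2.48 to 3.65 RPKM in CNV/CNV piglets. Genes of the interferon response summed to 344 RPKM in 6161ST and to between 27.0 and 50.9 RPKM in the other 5 libraries. The part of these differences in tissue make-up in the levels of *DCT*, *TYRP1* and *TRPM1* was not tested.

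Levels of the 3 genes relative to each other do not depend on the size of a library. The ratio of *TYRP1* to *DCT* in RPKM was 2.22 in 6161ST, 2.72 in 6165ST and 2.503 in 6407. It was 2.25 in 6185STQ, 2.87 in 6415 and 1.67 in 6434 (exact 95% interval 1.59 to 1.76). Piglet 6434 thus had less *TYRP1* for its *DCT* than any other piglet, by more than counting error, whereas the group means of 2.48 ± 0.254 (SD, n = 3) and 2.26 ± 0.598 (SD, n = 3) differed by less than the spread between piglets. The ratio of *DCT* to *TRPM1* ran from 9.62 in 6185STQ to 16.8 in 6161ST and its group means were 14.0 ± 2.61 and 12.9 ± 3.02. For *TYRP1* over *TRPM1* the lowest values were 21.7 in 6185STQ and 22.8 in 6434, and the highest was 44.5 in 6415. Both extremes were thus in the CNV/CNV group, and the wild-type piglets lay between them, from 31.9 to 37.3. While the level of each gene changed 2.94 to 4.33 times over the 6 libraries, the 3 ratios changed 1.71 to 2.06 times. All 3 genes come from a list built on genotype and are lower in CNV/CNV piglets, a difference that their ratios largely cancel. Other pairs of transcripts were not compared, so nothing is read from the narrower range.

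**Figure D2:**
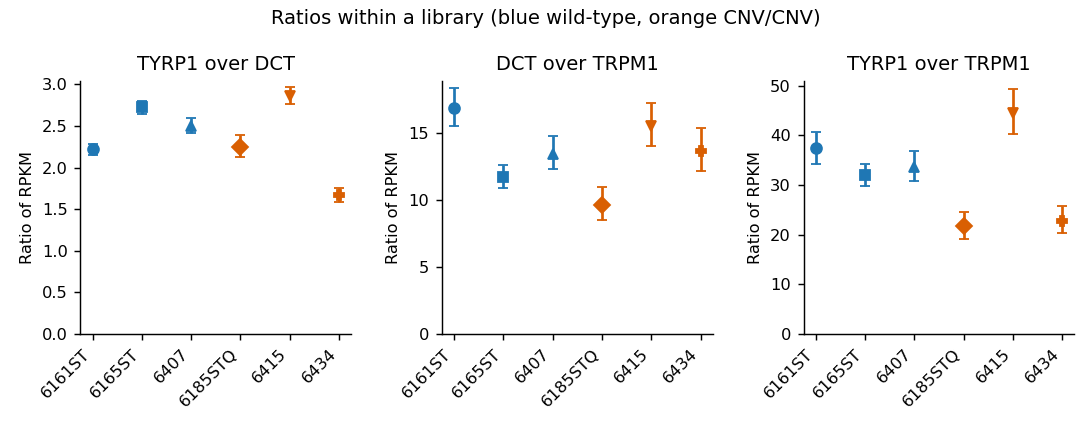
Ratio of RPKM between pairs of the 3 genes within each library (vertical axes, linear from 0), for wild-type (blue) and CNV/CNV (orange) piglets, with exact 95% counting intervals. The ratio of TYRP1 to DCT is lowest in 6434 (1.67), and that of TYRP1 to TRPM1 is highest in 6415 (44.5).

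Of 7 further pigment genes with a name in the sources, 5 belong to the melanosome. *TYR*, the gene of tyrosinase itself (ENSSSCT00000029628), had 17.8, 18.4 and 9.59 RPKM in 6161ST, 6165ST and 6407, and 4.75, 9.72 and 6.12 RPKM in 6185STQ, 6415 and 6434. *MLANA*, which encodes a melanosome protein, had 41.9, 49.96 and 21.6 RPKM in the wild-type piglets and 18.7, 22.1 and 19.7 RPKM in the CNV/CNV piglets, in the same order. In both genes 6407 lay beside 6415, just under it but with overlapping 95% counting intervals, and apart from the other wild-type piglets. *OCA2*, whose product acts on the ion balance of the melanosome, had 3.68, 6.19 and 2.84 RPKM against 1.15, 2.61 and 1.77 RPKM, without overlap. The 95% counting intervals of its closest piglets, 6407 (2.51 to 3.20 RPKM) and 6415 (2.29 to 2.96 RPKM), did overlap. The melanosome transporter gene *SLC45A2* had 10.6, 13.7 and 4.31 RPKM against 4.34, 4.70 and 2.10 RPKM. *GPR143*, the gene of a receptor in the melanosome membrane, had 16.003, 18.4 and 10.22 RPKM against 13.1, 9.81 and 5.49 RPKM.

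The remaining pair bears on the type of pigment. *ASIP* encodes the agouti signalling protein, which other skin cells secrete and which turns melanocytes towards the yellow to red pheomelanin. It was low and very uneven, with 3.20, 5.02 and 0.714 RPKM in wild-type and 0.514, 1.79 and 0.652 RPKM in CNV/CNV piglets, on 16 to 161 reads. *SLC7A11*, the gene of a cystine transporter that supplies the cysteine of pheomelanin, had 3.02, 3.58 and 2.84 RPKM against 1.33, 1.78 and 0.794 RPKM. Its groups did not overlap, and 6407 was close to the other wild-type piglets here, unlike in *MLANA* or *ASIP*.

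Log2 fold changes of these 7 genes were -1.02 for *TYR*, -0.77 for *MLANA*, -1.06 for *OCA2*, -1.22 for *SLC45A2*, -0.52 for *GPR143*, -1.44 for *ASIP* and -1.14 for *SLC7A11*, with standard errors from 0.28 to 0.70. Of the 7, 0 passed an adjusted p of 0.05 in edgeR in either direction, beside 0.00601% of all transcripts. The groups of 2 of them did not overlap in the lower direction, both in RPKM and after TMM scaling. The shares of all transcripts were 12.1% and 5.61%, as given above. Without both 6161ST and 6165ST, *SLC7A11* had -1.07, *MLANA* -0.050, *GPR143* -0.064 and *SLC45A2* -0.17, and *ASIP* turned to 0.52 (standard error 0.84). They come from the same list of the study as the 3 genes, which holds genes that differ in either direction, so that each was chosen for a difference between these piglets.

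**Figure D3:**
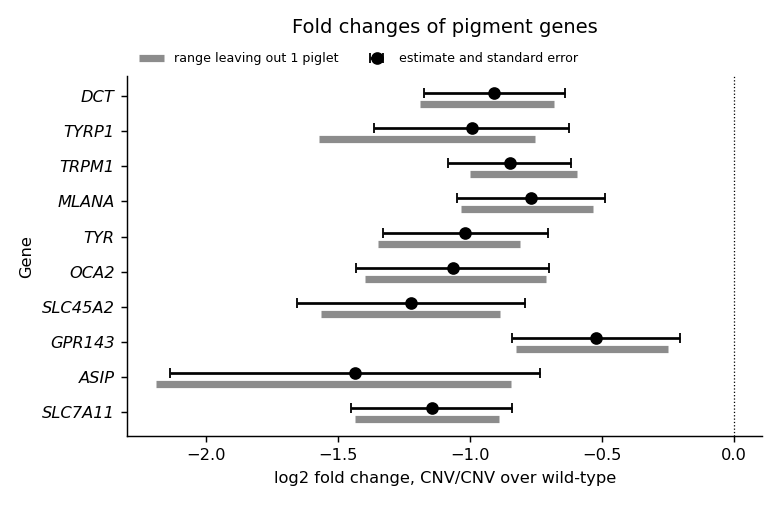
Log2 fold change of CNV/CNV over wild-type (horizontal axis) for the 3 genes and 7 further pigment genes, with the edgeR estimate and its standard error (black) and the range of the estimates that leave out 1 piglet (grey). The grey range of TYRP1 reaches from -1.57 to -0.75, and no range that leaves out a single piglet crosses 0.

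**Figure D4:**
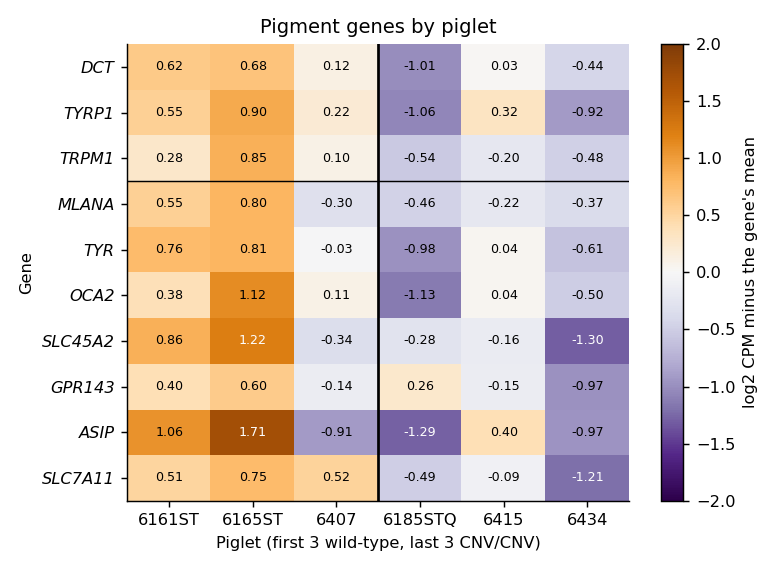
Log2 CPM (reads scaled to the library size after TMM) minus the gene's mean over the 6 libraries, for 10 pigment genes (rows) in each piglet (columns, wild-type left of the line), coloured from purple (low) to brown (high). All 10 genes are highest in 6165ST, and in 6185STQ DCT (-1.01) and TYRP1 (-1.06) are low while GPR143 (0.26) is not.

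All 10 pigment genes were highest in 6165ST and second in 6161ST, an order that 9.57% of the 13040 transcripts with a mean of at least 1 RPKM had. All 10 come from the study's list, built on genotype, and had lower means in CNV/CNV piglets, which favours a wild-type piglet at the top. Nothing is therefore read from that share. The summed hair shaft markers had the same order, with 5155 RPKM in 6165ST and 2542 RPKM in 6161ST. For the sebaceous gland markers the same pair was on top, with 92.0 RPKM in 6165ST and 98.3 RPKM in 6161ST. The lowest piglet was 6185STQ for the 3 genes and for *TYR*, *MLANA*, *OCA2* and *ASIP*, and 6434 for *SLC45A2*, *GPR143* and *SLC7A11*. Relative to *DCT*, the gene of tyrosinase was the steadiest, with a ratio of 0.303 to 0.375 in RPKM over the 6 libraries. *GPR143* had 0.271 to 0.375 of the level of *DCT* in 5 libraries and 0.951 in 6185STQ, the only library in which both were at nearly the same level. *MLANA* over *DCT* was also highest there, at 1.36, with 0.694 to 1.01 in the other 5. In the CNV/CNV piglet 6185STQ, low *DCT*, *TYRP1*, *TYR* and *OCA2* thus stood beside a level of *GPR143* that was the third highest of the 6.

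Over the 6 libraries, Pearson's r of log2 CPM was 0.95 between *DCT* and *TYRP1*, 0.90 between *DCT* and *TRPM1* and 0.90 between *TYRP1* and *TRPM1*. These r describe 6 points that share the split by genotype and the differences in tissue make-up. Taken as deviations from the mean of each genotype group, which does not use the contrast behind the list, they were 0.879, 0.676 and 0.735. Of 13039 other transcripts, 1.27% had a within-group r with *DCT* at least as high as that of *TYRP1*, and 6.15% one at least as high as that of *TRPM1*. For *TYR* the within-group r with *DCT* was 0.966, a value that 0.153% of transcripts reached. The shares that reached the within-group r of *OCA2* and *ASIP* with *DCT* were 0.943% and 1.61%. This r was lower for *MLANA* (0.67, share 6.33%), *SLC45A2* (0.419, 17.7%) and *SLC7A11* (0.315, 24.3%). For *GPR143* it was -0.02, which 50.5% of transcripts reached. *GPR143* was the gene least like the 3, with 0.440 to 0.651 over all values and -0.02 to 0.404 within groups.

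**Figure D5:**
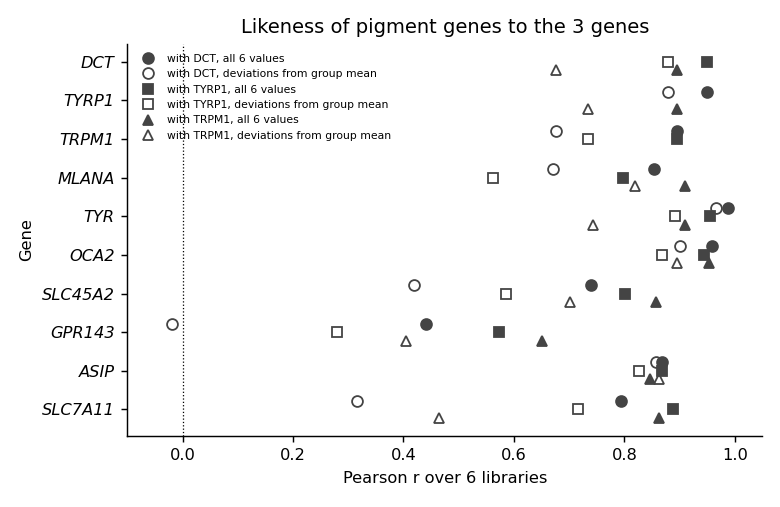
Pearson's r over the 6 libraries (horizontal axis) of each pigment gene (rows) with DCT (circles), TYRP1 (squares) and TRPM1 (triangles), from log2 CPM (filled) and from deviations from the group mean (open). TYR lies at 0.987 with DCT, and GPR143 at 0.440.

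The transcripts most like each gene were sought among all 13039 others, and the 50 with the highest r were taken. For *DCT* these reached from 0.947 to 0.995, and 7 of them had a name, the first being *TYR* (rank 3, r = 0.987), *CYP2D6*, a drug-metabolising cytochrome gene (rank 21), *ZDHHC21*, a palmitoyltransferase gene (rank 23), *OCA2* (rank 27), *SMDT1*, a gene of the mitochondrial calcium uniporter complex (rank 43), and *TYRP1* (rank 44). For *TYRP1* 5 had a name, which were *KLB*, a co-receptor gene of fibroblast growth factors (rank 22, r = 0.959), *TYR* (rank 24), *DCT* (rank 29), *CCNA1*, a cyclin gene (rank 35), and *OCA2* (rank 38). For *TRPM1* the 50 held 13 named transcripts, led by *HEPHL1*, a ferroxidase gene (rank 1, r = 0.993), *NHP2L1*, a gene of an RNA-binding protein of the spliceosome (rank 2), and *ELOVL3*, a fatty acid elongase gene of sebaceous glands (rank 3). The genes *VSIG8* (rank 8), *DSG4* (rank 11) and *TCHHL1* (rank 13) that followed are on the list of hair shaft markers. *OCA2* was also among the 50 of *TRPM1* (rank 21, r = 0.953), while *DCT* (rank 140), *TYRP1* (rank 142) and *TYR* (rank 93) were not. Shared between the lists of 50 were 16 transcripts for *DCT* and *TYRP1*, 9 for *DCT* and *TRPM1*, 10 for *TYRP1* and *TRPM1*, and 6 for all 3. The names come from the list of the study, which selects for the contrast that the 3 genes carry too.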

How the data were processed

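Ear RNA of 6 piglets (3 wild-type, 3 CNV/CNV, 1 library each) was analysed from the deposited tables, which hold for each Ensembl transcript the count of uniquely mapped reads, its length, the percent of its bases covered and the RPKM. The deposited counts were made by the authors after alignment with TopHat. The article gives Sscrofa11.1 and the submitters' processing notes give Sscrofa10.2, so positions printed here are those the study lists for Sscrofa11.1 and the build behind the counts is not settled. No source used here gives the aligner's version or the program that counted. The RPKM values deposited by the authors equalled those recomputed from count, length and total for 100% of values (relative tolerance 0.001). The deposited coverage percent was used as given, with no definition in the sources. The submitters' processing notes also name Bowtie2 and Cuffdiff. The authors' own fold changes and p-values from Cuffdiff were not used.

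A transcript not listed in a table was set to 0. Names came from the gene name column of the study's list (280 identifiers, 264 in the tables), as 0 identifiers matched the gene name tables at hand. Counts are not known to use strand, and overlapping genes cannot be told apart. Genotypes were compared in R 4.3.3 with edgeR 4.0.16 (filterByExpr, TMM, glmQLFit, glmQLFTest, genotype as the only term, Benjamini-Hochberg adjustment over 16645 transcripts). Standard errors were derived from the F value. Log2 CPM used a prior count of 2. Counting intervals are exact 95% Poisson intervals for a level and exact 95% binomial intervals for a ratio. Alternatives were DESeq2 1.42.0, upper quartile scaling, the library total alone, no low count filter, a minimum mean of 5 RPKM, voom in limma 3.58.1, a term for the letters ST in the piglet's name and leaving out each piglet. Leaving out both wild-type piglets with ST in their names was added after the data were seen. The fit was run on simulated data as a check of the code. How often it recovered differences of the size seen here is not reported. The members, gene lists and alternatives were chosen with earlier results of these data known. The genes named are the 3 genes, 7 further pigment genes, up to 6 named transcripts among the 50 most like each of the 3 by r (mean RPKM of 1 or more), and at most 2 markers of each other cell type with the highest mean. Melanocyte markers without a match are also named. No sequences were at hand.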

Additional observations from a re-analysis of the deposited data

How the results depend on the processing

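The log2 fold changes of *DCT*, *TYRP1* and *TRPM1* were below 0 in all 41 estimates from the alternative fits, counting each gene in each fit. Those of the 7 further pigment genes were below 0 in 94 of 95 estimates. These estimates reuse the same 6 libraries and genes chosen for this contrast, so they are not independent of each other or of that choice. Leaving out 1 piglet gave from -1.19 to -0.68 for *DCT*, from -1.57 to -0.75 for *TYRP1* and from -1.0 to -0.59 for *TRPM1*. Leaving out both wild-type piglets with ST in their names gave -0.54 for *DCT*, -0.63 for *TYRP1* and -0.51 for *TRPM1*. It gave -0.050 for *MLANA*, -0.43 for *TYR*, -0.57 for *OCA2*, -0.17 for *SLC45A2* and -0.064 for *GPR143*. *SLC7A11* stayed at -1.07, and *ASIP* reversed to 0.52. *TRPM1*, *OCA2*, *ASIP* and *SLC7A11* were below a mean of 5 RPKM and had no value under that filter. The number of transcripts called at an adjusted p under 0.05 was 1 in edgeR with TMM (890 at an unadjusted p under 0.05), 29 in DESeq2, 2 with the library total alone, 3 without a filter, 0 with a mean of at least 5 RPKM, 0 with voom, 2 with a term for ST, 0 without both ST-named wild-type piglets and from 0 to 6 when 1 piglet was left out, with 6 without 6407. None of the 3 genes was among them in any of these fits. Pearson's r fell to 0.879, 0.676 and 0.735 as deviations from the group mean for *DCT* with *TYRP1*, *DCT* with *TRPM1* and *TYRP1* with *TRPM1*. Spearman's rho was 1.0 for *DCT* with *TRPM1* and 0.943 for *TYRP1* with *TRPM1*. Without 1 piglet r ranged from 0.927 to 0.978, 0.886 to 0.936 and 0.863 to 0.969 in that order. In reads as deposited, not per length, *TYRP1* over *DCT* was 0.935, 1.15, 1.055, 0.949, 1.21 and 0.704 in 6161ST, 6165ST, 6407, 6185STQ, 6415 and 6434, lower by construction since its transcript is shorter. The causes of the other changes were not tested. No paired analysis was possible because neither the labels nor the article match a wild-type piglet to a CNV/CNV piglet, by litter or otherwise. Depth limits *ASIP* (16 to 161 reads), *SLC7A11* (51 to 218) and *OCA2* (97 to 538) most among the pigment genes, and *TRPM1* (278 to 841) most among the 3.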
